A study of Homo sapiens with 28 samples.

Results

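A549 cells exposed to azacitidine at 3 µM were set against A549 cells given vehicle, as 2 arrays for each group, chosen by their sample labels. These 4 arrays belong to a series of 28 one-colour expression arrays in 14 groups of 2, in which the lung cancer lines A549 and H1299 received azacitidine or decitabine at 0.3, 1 or 3 µM, or dimethyl sulfoxide (DMSO) as vehicle. Drug-treated cells were exposed for 48 h, with drug renewed daily in the medium. A549 is a lung adenocarcinoma line with a constitutively active NRF2 pathway, and H1299 is a non-small cell lung cancer line. The other groups used here are A549 with azacitidine at 0.3 and 1 µM, A549 with decitabine at 3 µM, and H1299 with azacitidine at 3 µM beside its own vehicle. Each line is 1 cancer cell line in culture. The labels do not say whether the arrays of a group came from separate cultures, so each p-value measures only the spread between these arrays, which may be technical. The number of arrays limits the precision.

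Azacitidine is a ribonucleoside analog of cytidine. Cells phosphorylate it through uridine-cytidine kinases and incorporate it mainly into RNA, and after ribonucleotide reductase has converted part of it, into DNA, where it traps DNA methyltransferases. Decitabine is its 2'-deoxyribonucleoside, is phosphorylated by deoxycytidine kinase and enters DNA alone. Stress on translation or on the supply of amino acids is read by kinases that phosphorylate the initiation factor eIF2, after which the transcription factor ATF4 induces genes for amino acid synthesis, uptake and tRNA charging.

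Signals are MAS5 values on a linear scale, and a log2 difference is that of log2(signal + 32), which draws the changes of dim genes toward 0. A gene passed when the limma fit over all 28 arrays gave an adjusted p under 0.05. Of 8030 genes tested, 1771 (22.1%) were higher and 1303 (16.2%) lower with azacitidine at 3 µM, so 57.6% of the passing genes were higher. With each array centred on its median, 1406 were higher and 1595 lower, or 46.9% higher, and the median of all genes moved to -0.01 against 0.06 on the deposited scale. The changes of most genes were modest: 130 passed with a rise of at least log2 1 and 195 with a fall of that size. Both treated arrays lay above both vehicle arrays for 37.5% of genes and below them for 27.3%.

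Of 12 tested markers of the A549 line 0 were higher and 7 lower (median -0.65). TM4SF4, FGA and FGB among them lay above the array medians with vehicle and below with azacitidine. AKR1B10, an aldo-keto reductase of the NRF2 program, had 17559 and 19259 with azacitidine and 16115 and 19598 with vehicle, and was chosen after its values were seen. None of 19 leukocyte or 9 endothelial markers exceeded the array median in these 4 arrays, and 3 or 4 of 12 fibroblast and muscle markers did, their summed signal being 1316 and 1428 with azacitidine and 2021 and 1930 with vehicle. That lower sum moved with the matrix genes described further on, and its part in them was not tested. The ratio of the 3' to the 5' actin probe sets, a sign of RNA integrity and labelling, was 4.90 and 5.36 with azacitidine at 3 µM and 3.40 and 3.08 with vehicle. For GAPDH it was 1.06 and 1.11 with azacitidine and 0.992 and 1.01 with vehicle. This measure moved with the treatment, and its part in the results was not tested.

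Most tested genes on a list of eIF2 phosphorylation and the stress regulators downstream of it rose. Of 22 tested members of that list 18 were higher and 1 was lower, with a median log2 difference of 1.04, against 0.06 for all genes tested. NIBAN1, a stress-induced protein that modulates translation, had 1731 and 1791 with azacitidine and 75.7 and 60.9 with vehicle. The log2 difference was 4.16 (95% interval 3.94 to 4.39, adjusted p = 1.03e-16). Both vehicle arrays lay below the median signal of their array, so no fold is given, and both treated arrays far above it. DDIT3, the transcription factor CHOP, had 788 and 1088 with azacitidine and 195 and 186 with vehicle. The treated arrays of DDIT3 differed among themselves more than the vehicle arrays did, and the groups did not overlap (log2 2.10, SE 0.155, adjusted p = 1.89e-09).

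ATF4 itself rose. It had 9420.1 and 10482 with azacitidine and 3803 and 5256 with vehicle, a log2 difference of 1.15 (SE 0.13, adjusted p = 6.75e-07). Several of its known target genes differed by more. TRIB3, a pseudokinase that restrains ATF4, had 7004 and 7819.9 with azacitidine and 1159 and 1187 with vehicle (log2 2.62). STC2, a secreted glycoprotein, had 1313 and 1357 with azacitidine and 208 and 202 with vehicle (log2 2.53). In these genes the 2 arrays of a group lay close together and far from the other group. ATF3, a repressor and activator of stress genes, reached 1037 and 1036 with azacitidine, against 122 and 131 with vehicle (log2 2.75).

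Further regulators rose by smaller steps. The values of NUPR1, a chromatin-associated stress factor, were 1830.1 and 2015 with azacitidine and 533 and 589 with vehicle. CHAC1, which degrades glutathione, had 372 and 408 with azacitidine and 116 and 114 with vehicle (log2 1.52). PPP1R15A, the phosphatase subunit that reverses eIF2 phosphorylation, had 464 and 569.5 with azacitidine and 290.2 and 205 with vehicle (log2 0.98, adjusted p = 3.13e-06). The single member that fell was EIF2AK3, the eIF2 kinase of the endoplasmic reticulum, with 639.8 and 553 under azacitidine and 809.8 and 744 under vehicle (log2 -0.37, adjusted p = 0.0272), a call that 2 of 16 alternatives ended. NUPR1, CHAC1 and PPP1R15A were chosen after their values were seen.

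**Figure D1:**
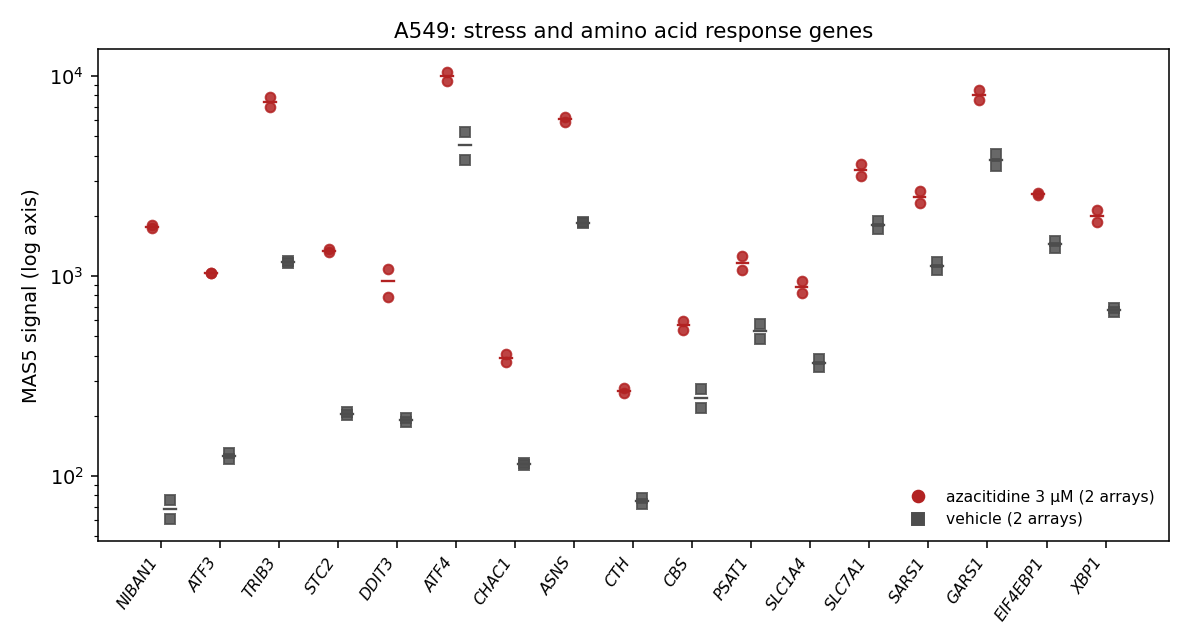
MAS5 signal on a log axis of 17 stress and amino acid response genes in A549, with each of the 2 azacitidine 3 µM arrays as a circle, each of the 2 vehicle arrays as a square and the group mean as a short line. For every gene drawn the azacitidine arrays lie above the vehicle arrays, from 1731 and 1791 against 75.7 and 60.9 for NIBAN1 to 2553 and 2600.2 against 1380.4 and 1492 for EIF4EBP1.

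Genes for making and importing amino acids moved the same way. Of 14 tested genes of amino acid and one-carbon synthesis 10 were higher and 2 lower (median 0.72), and of 11 amino acid transporters 6 were higher and 0 lower (median 0.41). ASNS, which makes asparagine, had 5874 and 6266 with azacitidine and 1829.9 and 1856 with vehicle, 3.29 times as much (log2 1.70, adjusted p = 1.87e-13). The transsulfuration enzymes that make cysteine rose together: CTH had 258 and 276 with azacitidine and 77.8 and 72.8 with vehicle, and CBS had 534 and 598 with azacitidine and 274 and 217 with vehicle. In the serine pathway, PSAT1 had 1068 and 1265 with azacitidine and 484 and 577 with vehicle. Groups overlapped for none of these 4 genes. The 2 members that fell were MTHFD1 (-0.19), the cytosolic folate enzyme, and GOT2 (-0.21), the mitochondrial aspartate aminotransferase, and these calls were lost in 6 and 2 of 16 alternative analyses, both of them without azacitidine replicate 1 or vehicle replicate 2.

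Among the transporters, SLC1A4, a carrier of neutral amino acids, had 939 and 826 with azacitidine and 349 and 385 with vehicle (log2 1.19, adjusted p = 1.51e-07). SLC7A1, which imports cationic amino acids, had 3149.9 and 3631 with azacitidine and 1723 and 1875 with vehicle (log2 0.90). SLC38A1, a glutamine transporter, had 3497 and 3463 with azacitidine and 2044 and 2249 with vehicle (log2 0.69). In all 3 the lower treated array lay above the higher vehicle array.

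The enzymes that charge tRNAs followed the transporters. Of 16 tested aminoacyl-tRNA synthetases 12 were higher and 1 lower (median 0.53). The charging enzyme for serine, SARS1, had 2318 and 2663 with azacitidine and 1073 and 1172 with vehicle (log2 1.13, SE 0.0783, adjusted p = 8.49e-10). GARS1, for glycine, had 7573 and 8479.8 with azacitidine and 3559 and 4057 with vehicle, and CARS1, for cysteine, 5698 and 6299 with azacitidine and 2794 and 3128 with vehicle. Each was about as far apart on the log2 scale as SARS1 (1.07 and 1.01). HARS1, for histidine, was the member that fell, with 1034 and 1174 under azacitidine and 1665 and 1533 under vehicle (log2 -0.52, adjusted p = 0.000116).

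Of 18 tested translation initiation factors 11 were higher and 0 lower, with a median of 0.31. EIF4EBP1, which holds back the cap-binding factor eIF4E, had 2553 and 2600.2 with azacitidine and 1380.4 and 1492 with vehicle (log2 0.83, adjusted p = 1.62e-08). The other large rises were in EIF3D (0.68) and EIF3A (0.58), subunits of the scaffold eIF3, and in EIF5 (0.60), the partner that triggers GTP hydrolysis by eIF2. Of the 36 cytosolic ribosomal protein genes tested, 1 was higher and 0 lower, and the median was 0.10. Ribosome biogenesis genes had 20 of 34 higher and 0 lower (median 0.37), with DDX10, a nucleolar helicase, at 4493 and 4974 under azacitidine and 1678 and 1613 under vehicle.

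The binding element of ATF4 and its C/EBP partners was sought in the promoters of these genes as RefSeq lists them (GRCh38.p14). A promoter was the 300 bases from 250 before to 50 after a listed start, and 6668 of the 8030 genes had at least 1, 10027 promoters in all. The letters searched were TGATGNAA on both strands, so TTNCATCA in the direction of the gene counts as well, and 2.02% of these promoters held them. By gene, 189 of 6668 (2.83%) had the letters, with 53 of 1492 higher genes (3.55%) and 27 of 1098 lower genes (2.46%). Among the genes of the 4 lists of stress regulators, amino acid synthesis, transporters and synthetases, 17 of 53 (32.1%) had them: 17 of the 41 that passed as higher and 0 of the 12 that did not. The initiation factors (0 of 14), ribosome biogenesis genes (0 of 29) and cancer-testis genes (0 of 16) had none. These shares describe letters in a window and were not tested. The 4 lists hold genes of the processes that ATF4 is known to induce, so their high share is no independent support. At the 2.83% of all genes, lists of 14 to 29 genes would hold few or none, so the counts of 0 in the initiation, ribosome biogenesis and cancer-testis lists set no contrast. The 0 of 12 stands beside 17 of 41 in the same lists, rests on few genes, and was not tested.

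Windows of 4 of these promoters that hold the letters are shown, 5' to 3' on the strand of the gene and upstream of its listed starts, because these genes rose and differ in role: ATF3 (chr1:212565170-212565269, plus strand), ASNS (chr7:97872423-97872522, minus strand), CHAC1 (chr15:40953221-40953315, plus strand) and the alanine synthetase AARS1 (chr16:70289640-70289739, minus strand; log2 0.77). Capitals mark the match, which lies on the strand opposite to the gene in CHAC1 and AARS1 and begins 191 bases before the start in ATF3 and 68 in ASNS. AARS1 and CHAC1 were picked for holding the letters.
ATF3: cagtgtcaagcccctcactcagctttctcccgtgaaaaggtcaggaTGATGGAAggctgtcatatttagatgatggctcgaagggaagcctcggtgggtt
ASNS: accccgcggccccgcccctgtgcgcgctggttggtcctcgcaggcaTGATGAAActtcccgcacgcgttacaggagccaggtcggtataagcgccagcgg
CHAC1: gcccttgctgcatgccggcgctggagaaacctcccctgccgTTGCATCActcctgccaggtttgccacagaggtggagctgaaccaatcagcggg
AARS1: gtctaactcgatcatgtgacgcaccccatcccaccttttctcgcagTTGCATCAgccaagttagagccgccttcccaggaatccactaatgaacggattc

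Chaperones and oxidoreductases of the endoplasmic reticulum went the other way. Of 22 tested 1 was higher and 9 lower (median -0.16). PDIA4, a protein disulfide isomerase, had 586 and 695 with azacitidine and 1670.2 and 1968 with vehicle (log2 -1.46, SE 0.115, adjusted p = 5.02e-09). PDIA3, the isomerase that works with calreticulin on glycoproteins, had 376 and 374 with azacitidine and 982 and 1008 with vehicle. CALR, calreticulin itself, had 828 and 841 with azacitidine and 1772 and 1992 with vehicle. All 3 fell to under 50% of the vehicle level with no overlap, and HSP90B1, the reticulum's HSP90, had 1115 and 1079 with azacitidine and 2019.8 and 2674 with vehicle.

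The list was not uniform. XBP1, a transcription factor of the unfolded protein response, was its only member to rise, with 2130.0 and 1852 under azacitidine and 693 and 658 under vehicle (log2 1.51, adjusted p = 1.1e-08). HSPA5, the chaperone BiP, had 6507 and 6216 with azacitidine and 5959 and 6399.6 with vehicle, overlapping groups with a log2 difference of 0.04 (95% interval -0.11 to 0.19, adjusted p = 0.696). HSPA5 was chosen after its values were seen. Among 15 cytosolic and mitochondrial heat shock genes 2 were higher and 4 lower (13.3% and 26.7%, beside 22.1% and 16.2% of all genes). Without azacitidine replicate 2, 1 was higher. HSPA9, the mitochondrial HSP70, was at 0.68 and the small heat shock protein HSPB1 at -1.26.

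Metallothioneins, small cysteine-rich metal-binding proteins, had 0 of 6 tested members higher and 4 lower (median -0.79). MT1X had 679 and 658 with azacitidine and 1766 and 1789 with vehicle (log2 -1.37, adjusted p = 2.86e-10). MT1H had 489 and 522 with azacitidine and 1028 and 1130.0 with vehicle, and MT2A had 1468 and 1984 with azacitidine and 2891 and 3498 with vehicle. The groups were apart for each. These genes are close to identical in sequence, so a probe set may read several of them, and single members are uncertain.

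Targets of NRF2, the regulator of antioxidant genes, did not move as a group, and 16 of 27 did not pass. Of 27 tested 5 were higher and 6 lower (median 0.02), shares of 18.5% and 22.2% beside 22.1% and 16.2% of all genes, and only 3 were lower without azacitidine replicate 1, without vehicle replicate 2 or with a pseudocount of 1. OSGIN1, an oxidative stress response gene, had the largest rise (log2 2.07). HMOX1, heme oxygenase, rose and had 5261 and 5244 with azacitidine and 2768 and 3429 with vehicle (log2 0.76). GCLM (0.41) and GCLC (0.46), the subunits of the enzyme that starts glutathione synthesis, were higher as well. GPX2, a glutathione peroxidase of epithelia, fell to 509 and 533 with azacitidine, against 2687 and 3011 with vehicle (log2 -2.38, adjusted p = 4.11e-08). ALDH3A1, an aldehyde dehydrogenase that A549 makes in quantity, had 1533 and 1569 with azacitidine and 3892 and 4380.3 with vehicle, and TKT, transketolase of the pentose phosphate pathway, had a log2 difference of -0.73.

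**Figure D2:**
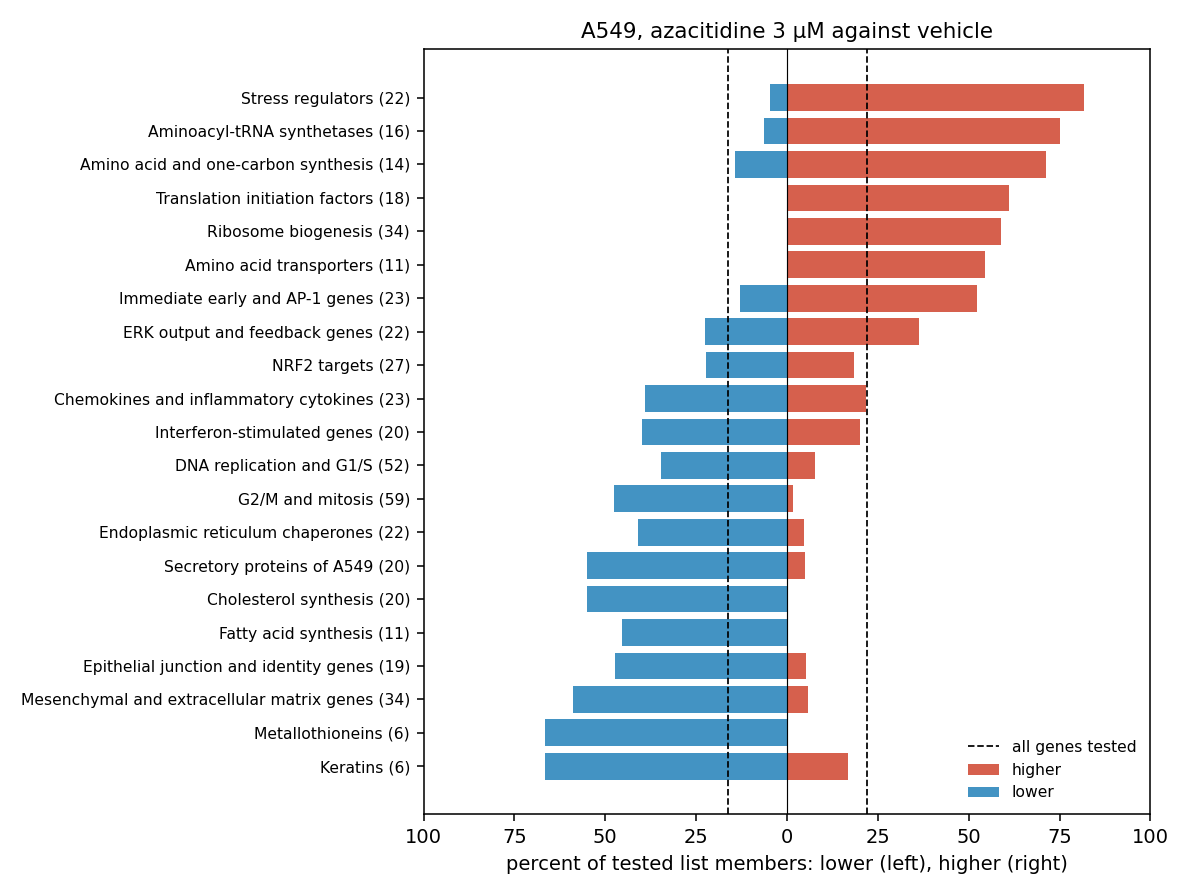
Percent of the tested members of 21 gene lists that passed as higher (right) or lower (left) in A549 with azacitidine at 3 µM against vehicle, with the number tested in parentheses and dashed lines at the shares of all genes tested, 22.1% and 16.2%. The stress, amino acid, synthetase and translation lists extend to the right and the chaperone, secretory, lipid, junction, matrix, metallothionein and keratin lists to the left.

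Genes for secreted plasma and mucosal proteins that A549 expresses were among the largest falls. A list member that was dim on nearly all arrays was not tested, which left 20 of 31 of these genes and 19 of 29 epithelial genes. Of the 20 tested 1 was higher and 11 lower (median -0.77), and 4 were lower where the filter on dim probe sets was set at the 75th percentile, which leaves fewer of these genes. AGR2, a disulfide isomerase needed for mucin folding, had 169 and 158 with azacitidine and 2491 and 1932 with vehicle. The fibrinogen chains fell together: FGB had 102 and 60.0 with azacitidine and 679 and 625 with vehicle, and FGA had 88.5 and 66.4 with azacitidine and 409 and 421 with vehicle (log2 -2.62 and -2.04). The complement component C5 had 148 and 131 with azacitidine and 805 and 735 with vehicle (log2 -2.22, adjusted p = 1.02e-09). The treated arrays of both fibrinogen genes were below the array medians of 121 and 109 and those of C5 just above them, so the size of these falls is bounded by background. APOH, a phospholipid-binding plasma protein, C3 and the third fibrinogen chain FGG were lower too, with log2 differences of -1.50, -1.60 and -1.78, and were chosen after their values were seen.

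Matrix genes fell broadly. Of 34 tested mesenchymal and extracellular matrix genes 2 were higher and 20 lower (median -0.39). COL5A2, a chain of type V collagen, had 1332 and 1260.3 with azacitidine and 6238 and 5996 with vehicle (log2 -2.21, adjusted p = 2.01e-10). COL5A1, its partner chain, had 288 and 284 with azacitidine and 942 and 1035 with vehicle. FN1, fibronectin, had 719.6 and 760.2 with azacitidine and 2873 and 3181 with vehicle. The values of each group lay close together and apart from the other group. SPARC, a collagen-binding glycoprotein, had 81.9 and 99.7 with azacitidine and 358 and 369 with vehicle, and the calcium-binding proteins S100A4 and S100A10 were lower, with log2 differences of -1.61 and -1.25. ZEB1, a repressor of epithelial genes, was one of the 2 that rose (1 without azacitidine replicate 2 or vehicle replicate 2), with 1129 and 1125 under azacitidine and 873 and 766 under vehicle.

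Epithelial genes fell alongside the matrix genes. Of 19 tested junction and identity genes 1 was higher and 9 lower (median -0.44), and of 6 keratins 1 was higher and 4 lower (median -0.65). JUP, plakoglobin of junctions and desmosomes, had 235 and 240.2 with azacitidine and 1163 and 1469.7 with vehicle (log2 -2.31). CD24, a surface glycoprotein, had 1637 and 1609 with azacitidine and 5812 and 5993 with vehicle, and ELF3, an epithelial transcription factor, had 375 and 316 with azacitidine and 1267 and 903 with vehicle. All 3 were separated between groups. The keratins of simple epithelia stayed far above the array medians. KRT8 had 4069 and 4079 with azacitidine and 6813 and 7602 with vehicle, and KRT18 8261 and 9468 with azacitidine and 11538 and 13206 with vehicle (log2 -0.82 and -0.48).

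**Figure D3:**
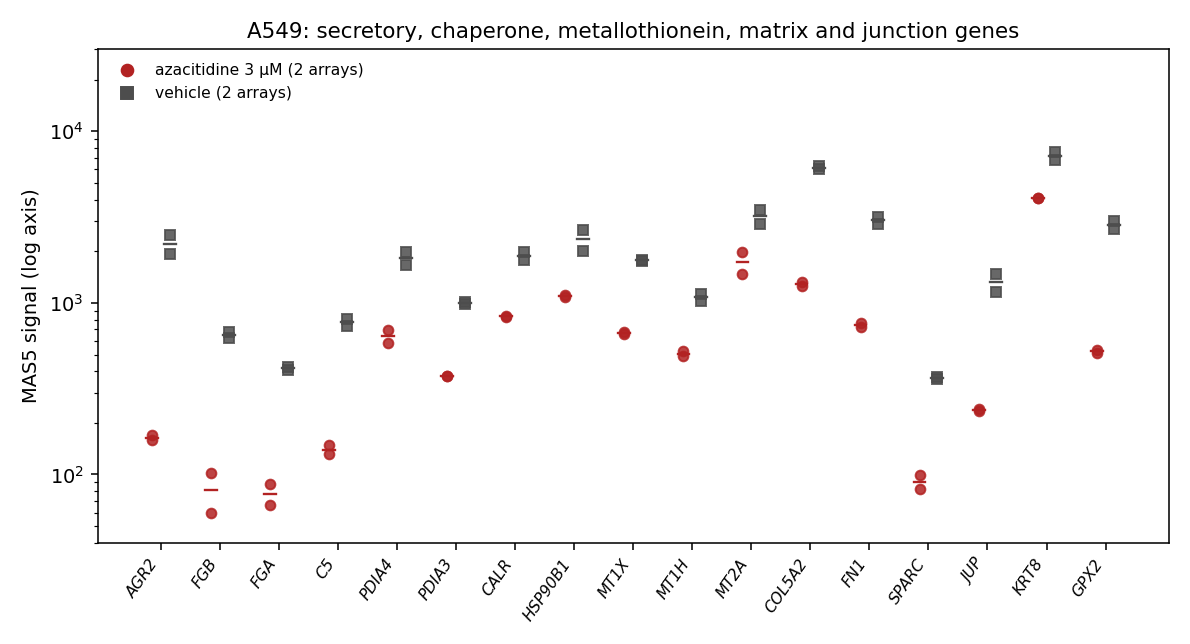
MAS5 signal on a log axis of 17 genes in A549: secretory, chaperone, metallothionein, matrix and junction genes, the keratin KRT8 and GPX2. Each of the 2 azacitidine 3 µM arrays is a circle, each of the 2 vehicle arrays a square and the group mean a short line. Every gene drawn lies lower with azacitidine, from 169 and 158 against 2491 and 1932 for AGR2 to 4069 and 4079 against 6813 and 7602 for KRT8.

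Lipid synthesis was lower as well, with 11 of 20 cholesterol genes and 5 of 11 fatty acid genes lower and 0 higher in either (medians -0.51 and -0.38). After median centring 8 fatty acid genes were lower. The desaturase SCD had 1892 and 1880.5 with azacitidine and 5260.0 and 5586 with vehicle (log2 -1.51, adjusted p = 5.3e-09). ACAT2, which joins acetyl-CoA units, had 268 and 289 with azacitidine and 901 and 794 with vehicle. Both genes fell to well under 50% of their vehicle level with no overlap. Of 22 genes of glucose metabolism 2 were higher and 6 lower (9.09% and 27.3%, beside 22.1% and 16.2% of all genes). The lower count was 11 after quantile normalization, and 1 was higher without azacitidine replicate 2 or either vehicle array. HK2, a hexokinase, had 405 and 434 with azacitidine and 49.6 and 12.4 with vehicle. Its vehicle arrays lay below the array medians, and its log2 difference ranged from 0.80 to 4.01 over the alternatives. PFKFB3, which makes an activator of glycolysis, had 2002 and 1746 with azacitidine and 4451 and 3989 with vehicle. LAMP3, a lysosomal membrane protein, had 103 and 73.4 with azacitidine and 1.28 and 1.57 with vehicle, all below the array medians, and the autophagy receptor SQSTM1 had 10489 and 11848 with azacitidine and 4617 and 5818 with vehicle (log2 1.10).

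Signalling genes moved in both directions. Of 23 immediate early and AP-1 genes 12 were higher and 3 lower (median 0.36). MAFF, a small partner of NRF2 and AP-1 factors, had 893 and 1061 with azacitidine and 254 and 269.8 with vehicle (log2 1.78, adjusted p = 4.05e-12). FOSL1, an AP-1 subunit, had 1106 and 1146 with azacitidine and 401 and 467 with vehicle (log2 1.32). MYC had 3722 and 4149 with azacitidine and 1995 and 2348 with vehicle (log2 0.85), and was chosen after its values were seen. In each of these genes the lower treated array was above the higher vehicle array. KLF4, a zinc finger factor, rose by 1.54 by its brightest probe set, while its second probe set gave -0.12 and did not pass. BHLHE40, a circadian repressor, was lower (log2 -1.04).

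Of 22 genes of ERK output and feedback 8 were higher and 5 lower (36.4% and 22.7%, median 0.17), and 2 were lower by the second probe sets. The phosphatase DUSP6 had 541 and 640.0 with azacitidine and 265 and 272 with vehicle, and the inhibitor SPRY2 had 476 and 526 with azacitidine and 271 and 253 with vehicle (log2 1.05 and 0.86). Cytokine genes were split within a family, with 21.7% of those tested higher and 39.1% lower, beside 22.1% and 16.2% of all genes. Of 23 tested 5 were higher and 9 lower (median -0.19), and 3 were higher without azacitidine replicate 1 or vehicle replicate 2. CXCL2, a neutrophil chemokine, had 737 and 925 with azacitidine and 212 and 201 with vehicle (log2 1.84, adjusted p = 4.78e-09). CCL2, a monocyte chemokine, had 87.9 and 83.3 with azacitidine and 578 and 667 with vehicle, and PTGS2, the inducible cyclooxygenase, 90.5 and 55.6 with azacitidine and 373 and 274 with vehicle. Both genes lay above the array medians with vehicle and below them with azacitidine.

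Of 22 genes of cytidine analog uptake and metabolism 4 were higher and 6 lower, with 2 higher without azacitidine replicate 2 and 3 lower without azacitidine replicate 1. With all arrays, 18.2% of the list were higher and 27.3% lower, beside 22.1% and 16.2% of all genes. The largest fall was in CDA, the cytidine deaminase that inactivates both analogs. CDA had 3.52 and 2.46 with azacitidine and 125 and 144 with vehicle (log2 -2.25, SE 0.25, adjusted p = 4.95e-07). The vehicle arrays were near the array medians and the treated arrays far below them, so no fold is given. UPP1, uridine phosphorylase, had 886 and 1040.4 with azacitidine and 399.8 and 460.0 with vehicle (log2 1.11). Deoxycytidine kinase DCK (-0.10, adjusted p = 0.565) and the nucleoside transporter SLC29A1 (-0.12, adjusted p = 0.522) did not pass. The ribonucleotide reductase subunits RRM1 and RRM2 were lower, with log2 differences of -0.27 and -0.52, the call of RRM1 being lost in some alternatives. UCK1 and UCK2, the kinases of azacitidine, were not analysed here.

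Of 12 genes of the DNA methylation machinery 3 were higher and 4 lower (25% and 33.3%, beside 22.1% and 16.2% of all genes). Without azacitidine replicate 2, however, 1 was higher and 1 lower. Without azacitidine replicate 1, 1 was higher, and without vehicle replicate 1, 1 was lower. DNMT1, the maintenance methyltransferase, had 1328 and 1284 with azacitidine and 1458 and 1420.0 with vehicle (log2 -0.14, 95% interval -0.28 to 0.01, adjusted p = 0.127). DNMT3A differed by 0.45 and DNMT3B by -0.43, calls that 4 and 2 alternatives ended. Of 28 measured cancer-testis genes, which promoter methylation normally keeps silent, 20 entered the test, and a gene that is silent in vehicle cells enters only through arrays in which it is high, so the count that follows is a description only. Of those 20, 14 were higher and 0 lower. Without azacitidine replicate 2, or without vehicle replicate 2, 9 were higher, and 1 was lower without vehicle replicate 2 and under 3 other alternatives. DAZL, a germ cell RNA-binding protein, had 128.2 and 129 with azacitidine and 27.2 and 13.7 with vehicle. MAGEA4 had 230.0 and 146 with azacitidine and 19.2 and 13.8 with vehicle (log2 2.16, adjusted p = 3.6e-08). The MAGE genes resemble each other in sequence, so single members are uncertain. The treated arrays of both genes lay above the array medians and the vehicle arrays far below. DIRAS3, an imprinted gene for a small GTPase, fell and had 20.6 and 4.70 with azacitidine and 93.0 and 73.9 with vehicle (log2 -1.39, adjusted p = 9.77e-05). All these values lie below the array medians, so DIRAS3 entered the test through other arrays. The size of its fall is bounded by background. RASSF1, a tumour suppressor often methylated in lung cancer, had 321 and 336 with azacitidine and 73.1 and 138 with vehicle (log2 1.43, adjusted p = 0.000173). Its list went mostly the other way: of 26 tested tumour suppressors methylated in lung cancer, 4 were higher and 11 lower (15.4% and 42.3%, median -0.26).

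Of 42 genes of DNA damage signalling and repair 7 were higher and 4 lower (16.7% and 9.52%), with 7 lower without azacitidine replicate 1 and 2 without vehicle replicate 1. Of 23 death receptor and BCL2 family genes 8 were higher and 6 lower (34.8% and 26.1%), with 5 higher without azacitidine replicate 2 or vehicle replicate 1. Among all genes tested these shares were 22.1% and 16.2%. CDKN1A, the cell cycle inhibitor p21, had 1044 and 1151 with azacitidine and 1078 and 1259 with vehicle. These are overlapping groups with a log2 difference of -0.08 (95% interval -0.28 to 0.11, adjusted p = 0.523). MDM2, a ubiquitin ligase, had 253 and 185 with azacitidine and 181 and 142 with vehicle (log2 0.37, adjusted p = 0.17). DDB2, a DNA damage sensor, fell, with 588 and 503 under azacitidine and 865 and 797 under vehicle (log2 -0.58, adjusted p = 0.000354). PMAIP1, the BH3-only protein NOXA, rose and had 945 and 1028 with azacitidine and 346 and 468 with vehicle, and GADD45A, a growth arrest protein, rose and had 1910.5 and 2182 with azacitidine and 854 and 998 with vehicle. TNFRSF10B, a receptor of the death ligand TRAIL, was higher by log2 0.75, in a call lost in 1 of 16 alternatives.

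Among proliferation genes more were lower than higher. Of 52 replication and G1/S genes 4 were higher and 18 lower (median -0.16), with 2 higher without azacitidine replicate 1 or vehicle replicate 2. Of 59 G2/M genes 1 was higher and 28 lower (median -0.25). CCND3, cyclin D3, had 1339.5 and 1459.6 with azacitidine and 2674 and 3186 with vehicle (log2 -1.04), and E2F8, a repressor of the cell cycle, 227 and 211 with azacitidine and 517 and 484 with vehicle (log2 -1.09). Interferon-stimulated genes had 4 of 20 higher and 8 lower (20% and 40%, beside 22.1% and 16.2% of all genes). Their lower count was 5 without azacitidine replicate 1 or vehicle replicate 1 and between 3 and 5 under 4 other alternatives. The higher count was 2 without azacitidine replicate 2. IFIT1, an RNA-binding antiviral protein, had 7.88 and 4.08 with azacitidine and 88.8 and 47.7 with vehicle, all below the array medians.

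Lower doses of azacitidine were compared next. At 0.3 µM 93 genes (1.16%) were higher than vehicle and 100 (1.25%) lower, and at 1 µM 1050 (13.1%) were higher and 972 (12.1%) lower. These counts share their vehicle arrays with those at 3 µM. Stress regulators were higher in 8, 16 and 18 of 22 members at 0.3, 1 and 3 µM. ASNS differed from vehicle by 1.16, 1.81 and 1.70 at the 3 doses, and TRIB3 by 0.79, 2.55 and 2.62, so both were about as far from vehicle at 1 µM as at 3 µM. NIBAN1 differed by 0.50, 3.25 and 4.16. AGR2 differed by -0.45, -2.04 and -3.51, and MT1X by -0.42, -0.91 and -1.37.

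The direct difference between the doses needs no vehicle array. Between 3 and 1 µM, 289 genes (3.6%) were higher at 3 µM and 221 (2.75%) lower. This count depends on single arrays: it was 31 higher and 48 lower without azacitidine 3 µM replicate 1, and 49 higher and 40 lower without azacitidine 1 µM replicate 2. Without azacitidine 3 µM replicate 2 or 1 µM replicate 1, 133 and 167 genes were higher. DAZL had 128.2 and 129 at 3 µM and 35.5 and 28.2 at 1 µM (log2 1.33, adjusted p = 0.000112). TRIB3 differed by 0.08 (adjusted p = 0.604) and ASNS by -0.11 (adjusted p = 0.371) between these doses. Among the fallers AGR2 had a log2 difference between the doses of -1.47, CDA of -1.37, ELF3 of -1.02 and SERPINF1, a secreted antiangiogenic serpin, of -1.24. CDA had 3.52 and 2.46 at 3 µM and 58.1 and 58.4 at 1 µM. NTS, the neuropeptide neurotensin, had 274 and 209.8 at 3 µM and 559 and 711 at 1 µM. TBXT, a T-box factor, GNAZ, a G protein, ICOSLG, a costimulatory ligand, and IRF4, an interferon regulatory factor, were also among the largest differences, at 1.22, 1.19, 1.17 and 1.08, and lost their calls in 5 to 8 of 17 alternatives.

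**Figure D4:**
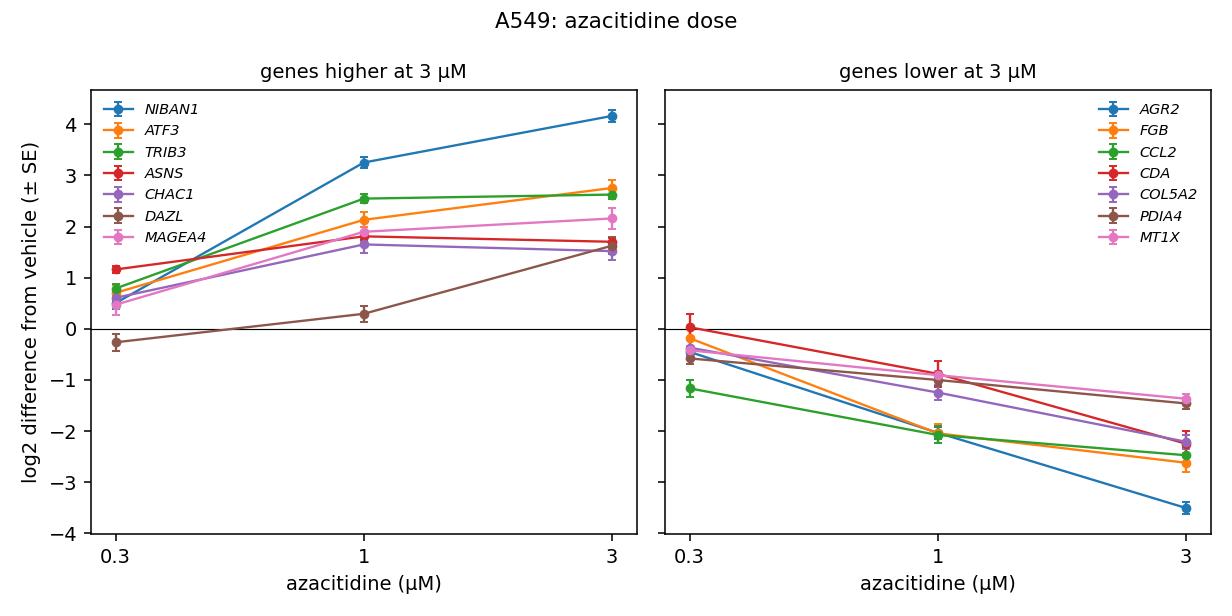
Log2 difference from vehicle in A549 at 0.3, 1 and 3 µM azacitidine for 7 genes higher at 3 µM (left) and 7 genes lower at 3 µM (right), with bars of 1 standard error from the fit. NIBAN1 and AGR2 move furthest at 3 µM, while TRIB3, ASNS and CHAC1 are nearly level between 1 and 3 µM, and DAZL passes only at 3 µM.

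At the same dose and time the 2 analogs were set against each other as 1 pair, without the vehicle arrays. Decitabine replicate 1 is labelled a repeat, with nothing said of what was repeated. Azacitidine was higher than decitabine at 3 µM for 2132 genes (26.6%) and lower for 1912 (23.8%). Without that repeat, 1606 genes were higher and 1533 lower, and the 10 largest differences (5 in each direction) kept their calls, the lone decitabine array then being assumed to vary like the other groups. Against the vehicle arrays that both share, decitabine had 1202 genes (15%) higher and 866 (10.8%) lower. Of the stress regulators 16 of 22 were higher with azacitidine than with decitabine and 2 lower, of the synthetases 12 of 16 were higher and 1 lower, and of the ribosome biogenesis genes 29 of 34 were higher and 0 lower. Against vehicle, decitabine itself had 5, 2 and 1 members of these lists higher and 3, 3 and 8 lower, so the differences between analogs hold changes with either. NIBAN1 had 1731 and 1791 with azacitidine and 63.8 and 75.4 with decitabine (log2 4.14, 95% interval 3.91 to 4.37, adjusted p = 1.14e-16). STC2 had 1313 and 1357 with azacitidine and 137 and 143 with decitabine. TRIB3 (2.78), OSGIN1 (2.46), an oxidative stress response gene, and CXCL2 (2.34) followed, and for all 5 the decitabine arrays lay near or below those of vehicle.

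A second group of genes was lower with azacitidine than with decitabine. AQP3, a water and glycerol channel of epithelia, had 65.3 and 54.0 with azacitidine and 1681 and 1622 with decitabine, with vehicle at 303 and 284. It thus lay below vehicle with one analog and above it with the other (log2 -1.83 and 2.37), though its second probe set gave -0.35 for azacitidine and did not pass. CLIC3, a chloride channel protein, had 6.75 and 13.2 with azacitidine and 445 and 483 with decitabine, with vehicle at 88.7 and 86.5. SERPINF1 had 14.2 and 8.72 with azacitidine and 562 and 561 with decitabine, with vehicle at 104 and 99.0. The same order held for CDH1, the adherens junction cadherin, chosen after its values were seen, with 57.9 and 43.1 under azacitidine, 901 and 908 under decitabine and 191 and 199 under vehicle. LY6D, a surface protein of stratified epithelium, had 5.17 and 3.75 with azacitidine and 744 and 721 with decitabine (log2 -4.39), and azacitidine did not raise it over the 5.87 and 1.88 of vehicle. On the azacitidine and the vehicle arrays CLIC3, SERPINF1 and LY6D all lay below the array medians. They entered the test through other arrays, among them those of decitabine where they were high. Their values are thus a description only.

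By list, 13 of 19 epithelial genes, 25 of 34 matrix genes and 9 of 9 S100 genes were lower with azacitidine than with decitabine, and 1, 2 and 0 were higher. Against vehicle, decitabine itself had 10, 9 and 5 members of these lists higher and 0, 3 and 0 lower. CDKN1A had 1044 and 1151 with azacitidine and 3767 and 3459.7 with decitabine (log2 -1.69, adjusted p = 1.37e-11). FAS, the death receptor, had 457 and 486 with azacitidine and 1705 and 1779.8 with decitabine (log2 -1.82) and was chosen after its values were seen. The analogs were not told apart for MDM2 (log2 -0.40, 95% interval -0.83 to 0.03, adjusted p = 0.118), for GADD45A (0.20, -0.04 to 0.44, adjusted p = 0.155), for the phosphatase DUSP6 (0.01, -0.22 to 0.23, adjusted p = 0.969) or for CTH (0.25, -0.06 to 0.56, adjusted p = 0.178).

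Among the germline genes, DAZL had 128.2 and 129 with azacitidine and 609 and 743 with decitabine (log2 -2.13, adjusted p = 1.11e-09), and MAGEA1 had 164 and 145 with azacitidine and 134 and 122 with decitabine (log2 0.22, 95% interval -0.10 to 0.53, adjusted p = 0.248). DIRAS3 had 20.6 and 4.70 with azacitidine and 256 and 335 with decitabine. It entered the test through arrays where it was high, those of decitabine among them, so these values are a description only. The metallothionein list was lower with azacitidine than with decitabine in 5 of 6 members and the endoplasmic reticulum list in 11 of 22, with 0 and 3 members higher. Beside these shares stand the 23.8% of all genes that were lower, and 0 members of either were lower with decitabine than with vehicle.

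**Figure D5:**
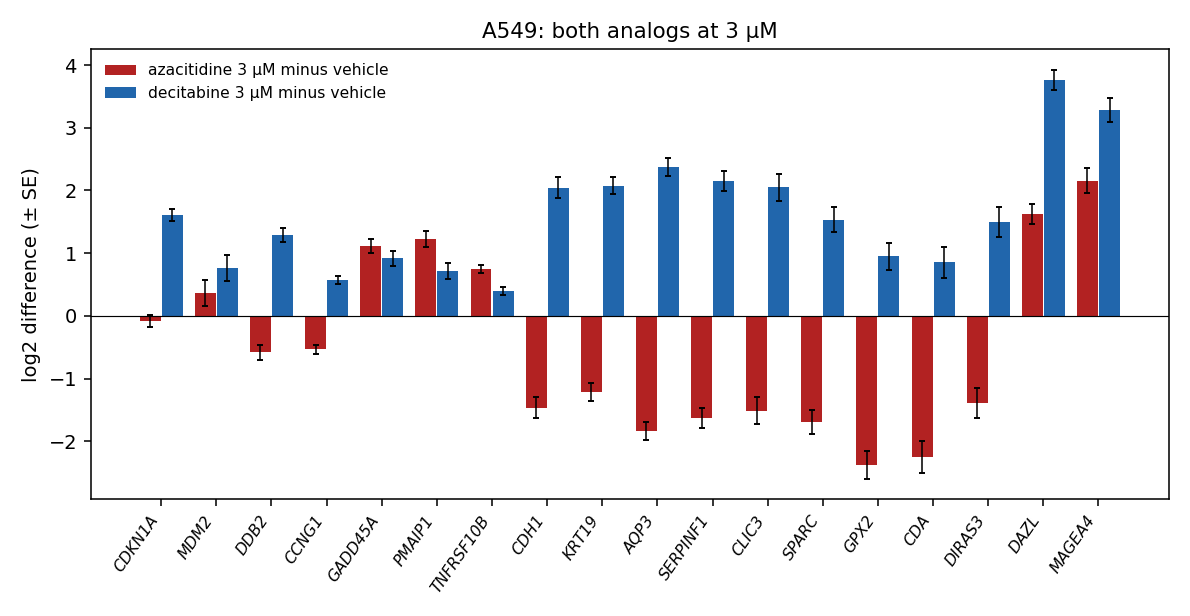
Log2 difference from vehicle in A549 for azacitidine at 3 µM (left bar of each pair) and decitabine at 3 µM (right bar), for 18 growth arrest, epithelial, matrix and germline genes, with bars of 1 standard error and both analogs sharing the vehicle arrays. CDH1, KRT19, AQP3, SERPINF1, CLIC3, SPARC, GPX2, CDA and DIRAS3 lie below 0 with azacitidine and above 0 with decitabine, and DAZL and MAGEA4 lie above 0 with both. The signals of SERPINF1, CLIC3 and DIRAS3 were below the array medians with azacitidine and with vehicle.

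The same dose in H1299 gave a second setting for the drug. There 2587 genes (32.2%) were higher and 1735 (21.6%) lower than the line's own vehicle, and the response of A549 minus that of H1299 passed above 0 for 1117 genes (13.9%) and below 0 for 1394 (17.4%). Stress regulators were higher in 18 of 22 members in A549 and 17 of 22 in H1299. For 6 of them the response was greater in A549 and for 11 smaller. DDIT3 rose by log2 2.10 in A549 and 4.55 in H1299, a difference of -2.45 (adjusted p = 3.98e-08), and NIBAN1 by 4.16 in A549 and 1.96 in H1299, a difference of 2.20. ASNS rose by 1.70 in A549 and 1.60 in H1299, which were not told apart (adjusted p = 0.485). Of 59 G2/M genes 28 were lower in A549 and 57 in H1299, and the difference of the responses passed above 0, a deeper fall in H1299, for 52.

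Several genes that fell in A549 were at background in H1299, so a fall could not have been seen there. AGR2 had 4.98 and 4.17 with azacitidine and 6.63 and 3.13 with vehicle in H1299, and FGB had 6.35 and 7.69 with azacitidine and 14.9 and 7.20 with vehicle. COL5A2 had a low signal in H1299 and rose there: it had 95.5 and 87.9 with azacitidine and 39.3 and 44.3 with vehicle in H1299, and its response was -2.21 in A549, against 0.75 in H1299 (difference -2.96, adjusted p = 5.62e-10). HK2 went the opposite way in the lines. It had 1068 and 1078 with azacitidine and 2287 and 1617 with vehicle in H1299, and its response was 2.91 in A549, against -0.82 in H1299. The metallothioneins, lower in 4 of 6 members in A549, were higher in 1 and lower in 0 in H1299. UPP1 rose in both lines, by 1.11 in A549 and by 4.62 in H1299 (difference -3.51).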

How the data were processed

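Gene expression was measured on 28 one-colour Affymetrix arrays, and the deposited table holds 1 linear MAS5 intensity per probe set and array. MAS5 is named, without a version, in the submitters' processing notes, and total RNA was amplified to biotin-labelled cRNA, per the labels' protocols. No further normalization by the authors is given in the sources used here. The mean signal after trimming 2% was 500.12 to 500.16 over the 28 arrays, so the deposited values were already on a common scale. The deposited intensities were used as they stand, with 32 added before log2.

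Of 22277 probe sets, 62 controls were left out and 19070 carried 1 gene name, 1043 carried several and were not used. A probe set was kept when it exceeded the array's median on at least 2 arrays, and where a gene had several, the one brightest on average over the arrays stood for it, which left 8030 genes. Among the genes that passed and had several kept probe sets, 18 of 1104 had another that passed in the opposite direction. limma 3.58.1 in R 4.3.3 fitted 1 mean per group over all 28 arrays (14 residual degrees of freedom), with eBayes and trend, two-sided, and all adjusted p-values are Benjamini-Hochberg over the 8030 genes at a threshold of 0.05. Levels are given as array 1 and array 2 of a group, and intervals are 95% intervals of that fit. Array medians were 121 and 109 with azacitidine at 3 µM and 123 and 105 with vehicle. MAS5 signals of different probe sets are not levels to be ranked against each other, and dim signals are imprecise.

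Named genes were the 20 largest rises and 20 largest falls without overlap of arrays, the 4 largest passing members of each of 47 gene lists in each direction, a fixed set of genes of drug handling, methylation, growth arrest and ATF4, and the 5 largest differences in each direction of each further contrast. Other genes are marked where named, and lists whose counts are not printed are not reported here. The comparison, the lists and the members were chosen with earlier results of these data known, so they are no independent support. Promoters came from RefSeq on GRCh38.p14.

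Data were simulated for 8030 genes with the real spread and group means, except that the A549 azacitidine 3 µM means were set equal to vehicle. Then 100 genes were changed by log2 0.5 and 100 by log2 1. Of these, 50% and 84% were found against vehicle, and 7 unchanged genes (4.96% of calls) passed. In the real comparison 3074 genes passed, far more than were changed here, so these shares do not carry over to it. The alternatives were other pseudocounts, filters, scalings, array sets, variance models and probe sets, a minimum fold, a covariate for the array's 25th percentile, a replicate block and leaving out single arrays. The replicate numbers came from the sample descriptions. Same-numbered arrays deviated together, with a correlation over 0.1, in 9 of 21 pairs of A549 groups (range -0.24 to 0.26, and 0.255 for azacitidine 3 µM with vehicle), and not in every pair, so the numbers were not taken to pair the arrays.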

Additional observations from a re-analysis of the deposited data

Results flagged for a closer look

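The response to azacitidine at 3 µM differed between the lines, by a test of the difference itself, for 1117 genes above 0 and 1394 below 0 (A549 response minus H1299 response), and the largest differences are given as values. HK2 differed by 3.73, with responses of 2.91 in A549 and -0.82 in H1299, and by 1.75 to 4.86 over the alternatives. FJX1, a secreted inhibitor of dendrite growth, differed by 2.93, with 1.05 in A549 and -1.88 in H1299. HBQ1, a globin gene, differed by 2.98, where the A549 response of 1.01 did not pass (adjusted p = 0.0617, limma). CPM, a membrane carboxypeptidase, differed by 2.82 and TM4SF1, a tetraspanin-like membrane protein, by 2.63, with A549 responses of -0.0009 and 0.23 that did not pass.

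Below 0, TAC1, the precursor of substance P, differed by -5.73 and had 2157 and 2129 with azacitidine and 1.25 and 7.61 with vehicle in H1299. In A549 TAC1 had 12.9 and 11.1 with azacitidine and 13.5 and 1.44 with vehicle. UPP1 differed by -3.51 and HEY1, a repressor downstream of Notch, by -3.25, and the A549 response of HEY1, -0.07, did not pass. AGR2 differed by -3.50 and THSD7A, an endothelial and podocyte membrane protein, by -3.17. Both are at background in H1299 vehicle cells, at 6.63 and 3.13 and 11.8 and 3.06. The A549 response of THSD7A was -3.08 to -1.76 over the alternatives, less far from 0 than its difference, so its H1299 response lay above 0.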

How the results depend on the processing

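The counts of genes higher and lower with azacitidine at 3 µM than with vehicle, than with decitabine, and between lines stayed within 1.5 times under every alternative except a minimum log2 difference of 1, which left 130 and 195 against vehicle, 184 and 396 against decitabine, 215 and 379 between lines, and 6 and 7 against 1 µM. Leaving out single arrays gave 1344 to 1795 higher and 1031 to 1292 lower against vehicle, 1606 to 2182 and 1533 to 1914 against decitabine, and 899 to 1142 and 1077 to 1391 between lines. The difference between 3 and 1 µM (289 higher, 221 lower) moved more. It was 157 higher after quantile normalization, 106 and 516 after median centring, 94 and 136 with the 14 A549 arrays alone, 90 and 85 with the 25th percentile of each array as covariate, and 31 to 309 higher and 40 to 238 lower without single arrays. The causes were not tested. The scaling moved the split against vehicle: 57.6% of passing genes were higher as deposited, 54.5% after quantile normalization (1735 higher, 1450 lower) and 46.9% after median centring. A replicate block, with numbers that the data did not show to pair the arrays, gave 1824 and 1338 against vehicle, 329 and 261 against 1 µM, 2188 and 1935 against decitabine, and 1164 and 1407 between lines.

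Of 226 values for named genes, 41 lost their call under at least 1 alternative other than the minimum fold. Directions reversed for MUC5AC without the filter (-0.16), and with the second probe set for TDG (-0.064), KLF4 (-0.12), ETV1 (0.23) and, between doses, ICOSLG (-0.028). Dim genes, such as CDA with log2 differences of -5.10 to -1.0023 over the alternatives, are limited by signal over background.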

Other observations

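Further lists are given by their counts. Of all genes tested, 22.1% were higher and 16.2% lower. Of 41 genes of oxidative phosphorylation 1 was higher and 13 lower with azacitidine at 3 µM than with vehicle, and 7 were lower without azacitidine replicate 1 and 8 without vehicle replicate 2. Of 26 autophagy and lysosome genes 6 were higher and 3 lower (23.1% and 11.5%). Of 45 splicing genes 11 were higher and 9 lower (24.4% and 20%). Both lists lie near the shares of all genes. Of 16 imprinted genes 6 were higher and 6 lower (37.5% each). Among 26 housekeeping genes there were 8 that fell and 1 that rose, and 5 fell without vehicle replicate 2. Of 26 tumour suppressors methylated in lung cancer 4 were higher and 11 lower. Of 27 proteasome subunits 3 were higher and 3 lower (11.1% each). Of 15 genes of class I antigen presentation 0 were higher and 2 lower (13.3%). Of 13 HOX genes 1 was higher and 1 lower (7.69% each), and of 10 clustered histone genes 1 and 2 (10% and 20%).

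Single genes outside these lists were among the largest differences. IL1RL1, a receptor for interleukin 33, had 127 and 116 with azacitidine and 12.9 and 8.48 with vehicle (log2 1.85). LHX6, a homeobox factor, had 164 and 139 with azacitidine and 22.5 and 10.4 with vehicle (log2 1.93). RBCK1, a subunit of the linear ubiquitin ligase, had 7362 and 7984 with azacitidine and 1987 and 2267 with vehicle. MOCOS, an enzyme that prepares the molybdenum cofactor, had 1041 and 1120.1 with azacitidine and 263 and 287 with vehicle. All 4 were higher without overlap. On the lower side, PC, pyruvate carboxylase, had 19.3 and 35.8 with azacitidine and 151 and 235 with vehicle (log2 -1.90). CYB5A, cytochrome b5, had 480.2 and 509 with azacitidine and 1987 and 2296 with vehicle, and TM4SF4, a membrane protein of the A549 marker list, 14.96 and 5.28 with azacitidine and 171 and 182 with vehicle. EFNA1, an ephrin ligand, had 56.4 and 28.8 with azacitidine and 199.8 and 289 with vehicle.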
